A study of Homo sapiens with 12 samples.

Results

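KATO-III is an established line of a diffuse, signet ring type gastric cancer, and it holds cells with and without CD133 on their surface. CD133, also called prominin, is a pentaspan glycoprotein of membrane protrusions encoded by PROM1, and its AC133 epitope is used to enrich cells with stem-like properties from epithelial tumors. Differentiated gastric and intestinal epithelium is marked by secreted mucins, trefoil factors, digestive and detoxifying enzymes and a set of keratins, while dividing cells transcribe the DNA replication genes before the genes of the mitotic spindle. The comparison of CD133+ with CD133- KATO-III cells asks which genes and pathways go with the CD133 surface level inside a single line.

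The KATO-III arrays were 4 of the 12 arrays of the series, 2 of CD133+ and 2 of CD133- cells, chosen by the cell line and cell marker in their labels. The other 8 arrays hold the same fractions of SNU-216 and SNU-601, also gastric cancer lines. All cells were grown untreated in RPMI1640 medium with calf serum, stained with the AC133 antibody and separated by a flow cytometer, which kept the brightest 10% as CD133+ and the dimmest 6% as CD133-, so the cells in between were not collected. Total RNA was amplified, labelled with biotin and hybridized to Illumina HT-12 v3 BeadChips, and the line stands for a single tumor. Intensities are linear, quantile-normalized and background-subtracted. Since the subtraction scatters dim genes around 0, a floor of 32.7 stood in for lower values before log2 was taken, and a gene was described where 2 or more of the 4 KATO-III arrays exceeded it. This held for 17051 of the 34595 genes with a value, and for 13909 of them on all 4 arrays. Differences are log2 changes of CD133+ over CD133- cells from limma, a linear model with moderated variances fitted here to all 12 arrays and 20147 genes, with a standard error (SE). A gene was called at a Benjamini-Hochberg adjusted p under 0.05. The labels number the 2 arrays of a fraction as replicates without saying whether they came from separate sorts, so the p-values measure the spread between these arrays, which may be technical. Fewer cells of a kind and less RNA per cell cannot be told apart in these pools.

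PROM1 carried the sort into the arrays. Its intensity was 9513 and 8847 on the CD133+ arrays and 4056 and 4493 on the CD133- arrays, so that both CD133+ arrays lay above both CD133- arrays (log2 change 1.10 ± 0.06 SE, adjusted p = 2.38e-06). The CD133- cells still carried PROM1 RNA far above the floor. The log2 change was smaller than those of 2.02 in SNU-216 and 1.86 in SNU-601 (difference from their mean -0.83 ± 0.07 SE, adjusted p = 6.04e-05). With 2 arrays against 2, an exact permutation test of a single gene cannot go below p = 0.333, so all calls rest on the fit across genes.

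The arrays of a fraction were alike and the fractions differed. Pearson's r over the fitted genes was 0.995 between the CD133+ arrays and 0.994 between the CD133- arrays, against 0.974 to 0.975 across the fractions. All 12 markers of gastric epithelium, among them EPCAM, KRT8, KRT19 and TFF3, were above the floor on all 4 arrays, with a summed intensity of 81531 to 82971 in CD133+ and 95181 to 95247 in CD133- cells. Of 16 blood cell markers, 4 exceeded the floor in CD133+ cells (CD2, CD14, CD68 and HBA2). On at least 1 CD133- array 6 did, the same genes with CD79A and ITGAM, while PTPRC, CD3D and CD3E were not above the floor. The sums over all 16 were 1022 to 1106 in CD133+ and 1496 to 1500.0 in CD133- cells. Of 12 fibroblast markers, 3 and 2 exceeded it, with sums of 503 to 510.3 and 1203 to 1218, and of 10 endothelial markers 2 and 1, with sums of 1919 to 2097 and 2372 to 2390.4. Their part in the differences below was not tested.

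Of the 17051 genes described, 3761 were higher and 4156 lower in CD133+ cells, which is 46.4% of them (22.1% and 24.4%). With the arrays centred on their medians the balance turned, to 4184 higher and 3727 lower, and quantile-normalized again it was 4025 and 3906. A change of at least 2-fold was called for 667 genes upward (3.91%) and 838 downward (4.91%), or 760 and 742 with the arrays centred. Over all 20147 genes fitted these shares were 39.3%, 18.7%, 20.6%, 3.31% and 4.16%. The arrays of the fractions did not overlap for 12720 of the genes described (74.6%). These shares are the background for every list below, and the median change over all genes described was -0.02.

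**Figure D1:**
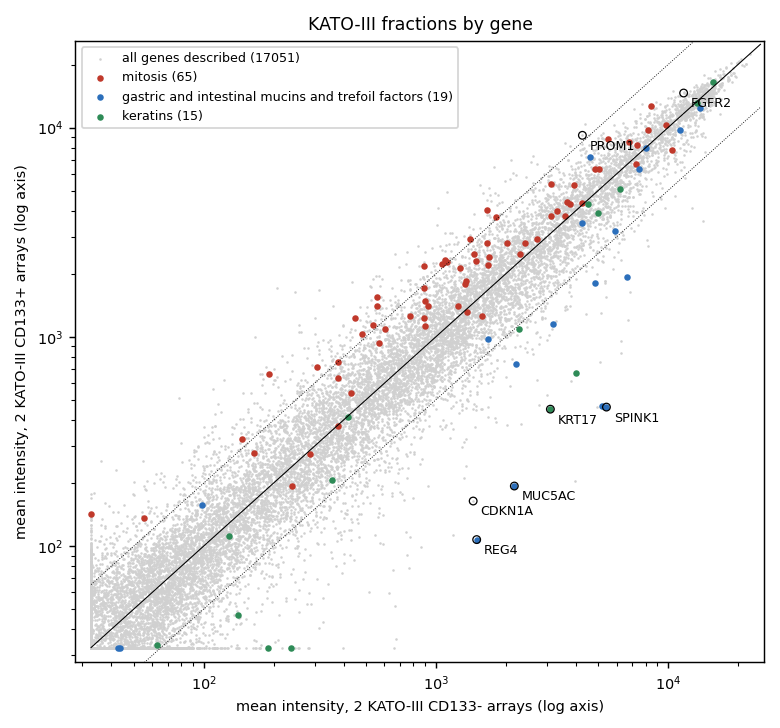
Mean intensity of each of the 17051 genes described on the 2 CD133- arrays (x, log axis) and the 2 CD133+ arrays (y, log axis) of KATO-III, with means under the floor drawn at the floor, a solid line at equal intensity and dotted lines at 2-fold. Most of the 65 mitosis genes lie above the line, and REG4, SPINK1, MUC5AC, KRT17 and CDKN1A lie below the lower dotted line.

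Genes of mitosis stood higher in CD133+ KATO-III cells. Of 65 members described, 50 were called higher and 2 lower, against 22.1% and 24.4% of all genes described, and the median log2 change was 0.58 (0.18 in SNU-216 and 0.44 in SNU-601). A rise of at least 2-fold was called for 18 members. The authors drew some mitotic genes from these same arrays, among them CDC2, TOP2A and CENPK, so the direction of the list is not independent evidence.

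The upstream sequences of mitotic genes are shown because many members of the list share promoter letters, counted whether or not they were called. Whether the letters go with the change was not tested. Many genes of this phase carry a CCAAT box, the element bound by NF-Y, and TTTGAA, the core of the cell cycle homology region. Below are the 250 bases before the RefSeq start of CDC2 (chr10:60778081-60778330, plus strand), CCNB1 (chr5:69166900-69167149, plus strand), BUB1 (chr2:110678064-110678313, minus strand) and PLK1 (chr16:23678639-23678888, plus strand) in GRCh38.p14, 5′ to 3′ on the strand of the gene, with CCAAT, its reverse ATTGG, and TTTGAA in capitals.
CDC2: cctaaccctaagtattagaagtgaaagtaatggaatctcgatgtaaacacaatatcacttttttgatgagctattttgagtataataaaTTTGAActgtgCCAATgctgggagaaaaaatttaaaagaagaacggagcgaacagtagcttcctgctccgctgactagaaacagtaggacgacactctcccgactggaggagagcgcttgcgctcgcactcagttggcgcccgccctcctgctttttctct
CCNB1: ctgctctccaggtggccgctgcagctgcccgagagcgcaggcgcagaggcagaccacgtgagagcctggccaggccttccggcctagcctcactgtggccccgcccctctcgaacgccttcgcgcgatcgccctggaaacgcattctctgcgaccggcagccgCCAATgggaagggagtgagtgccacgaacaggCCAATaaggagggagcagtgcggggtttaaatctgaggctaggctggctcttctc
BUB1: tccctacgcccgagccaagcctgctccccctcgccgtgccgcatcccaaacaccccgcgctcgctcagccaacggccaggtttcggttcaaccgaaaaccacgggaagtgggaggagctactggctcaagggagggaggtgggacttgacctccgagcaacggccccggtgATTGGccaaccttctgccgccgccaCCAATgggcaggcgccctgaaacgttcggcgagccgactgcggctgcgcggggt
PLK1: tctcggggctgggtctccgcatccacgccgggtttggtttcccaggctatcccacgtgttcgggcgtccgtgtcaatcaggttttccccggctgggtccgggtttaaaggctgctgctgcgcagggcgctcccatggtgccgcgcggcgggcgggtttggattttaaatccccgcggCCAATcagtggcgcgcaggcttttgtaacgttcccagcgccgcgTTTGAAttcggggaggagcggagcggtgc
Both sets of letters stand in the windows of CDC2, now named CDK1, and PLK1. The window of CCNB1 holds CCAAT as printed and that of BUB1 holds CCAAT and its reverse, and neither window holds TTTGAA. Of the 65 genes, 57 matched a RefSeq promoter. CCAAT on either strand stood in the 250 bases before the start of 42 of them (73.7%) against 33.0% of 27305 promoters, TTTGAA in 29 (50.9%) against 13.6%, and both in 24 (42.1%) against 4.85%, where matches that share a base were both counted. The window of NUF2, the member with the largest change, held neither. A match of letters is a description and not a binding site.

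NUF2 and NDC80 had the largest changes of the mitosis list. They encode partners in the complex that fastens the kinetochore to microtubules. NUF2 read 169 and 117 on the CD133+ arrays and 32.5 and 14.8 on the CD133- arrays, the latter at or under the floor, which is at least 4.29-fold (log2 change 2.10 ± 0.21 SE, adjusted p = 6.57e-05). NDC80 read 652 and 668 on the CD133+ arrays and 217 and 164 on the CD133- arrays (log2 change 1.81 ± 0.19 SE, adjusted p = 9.43e-05). In both genes the CD133+ arrays lay well above the CD133- arrays. SPC25, of the same complex, had a log2 change of 1.00 and SPC24 of 0.33.

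Among further members called higher, the checkpoint kinase gene BUB1 was 1551 and 1534 in CD133+ cells and 567 and 547 in CD133- cells (log2 change 1.47 ± 0.08 SE, adjusted p = 2.30e-06). The centrosomal gene TACC3 was 1253 and 1201 in CD133+ cells and 457 and 443 in CD133- cells (log2 change 1.45 ± 0.11 SE, adjusted p = 1.59e-05). Each CD133+ array lay above each CD133- array by over 2-fold in these genes. MAD2L1, which holds back the anaphase, changed by 1.28 and the kinesin genes KIF18A and KIF11 by 1.32 and 1.08 on the log2 scale, all called.

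CDC2, CCNB1 and PLK1, which drive entry into mitosis, were also higher. CDC2, the kinase of this step, read 1744 and 1689 on the CD133+ arrays and 959 and 811 on the CD133- arrays (log2 change 0.96 ± 0.10 SE, adjusted p = 7.13e-05). Its partner CCNB1 read 1449.8 and 1349.7 on the CD133+ arrays and 517 and 596 on the CD133- arrays (log2 change 1.33 ± 0.11 SE, adjusted p = 2.05e-05), and PLK1 read 803 and 625 on the CD133+ arrays and 307 and 309.6 on the CD133- arrays (log2 change 1.20 ± 0.12 SE, adjusted p = 7.40e-05). The arrays of the fractions did not overlap for any of these. CCNA2 was also higher (log2 change 0.78), as was TOP2A, the topoisomerase that untangles chromosomes (0.58).

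Some mitotic genes were lower or not called, and the count lower was 1 without the second CD133+ array or the first CD133- array. CDC20, which activates the anaphase-promoting complex, was 7747 and 7824 in CD133+ cells and 10266 and 10575 in CD133- cells and fell (log2 change -0.42 ± 0.06 SE, adjusted p = 5.71e-04). KIF20A fell too (log2 change -0.33 ± 0.09 SE, adjusted p = 0.0179), and this call was lost in 3 of the 4 fits that left out an array (adjusted p = 0.0797 to 0.13). MKI67, the gene of the Ki-67 antigen, was 212 and 175 in CD133+ cells and 241 and 238 in CD133- cells and was not called (log2 change -0.31 ± 0.13 SE, adjusted p = 0.0788). AURKA, AURKB and BIRC5 were not called, with log2 changes of 0.16, 0.12 and 0.21.

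**Figure D2:**
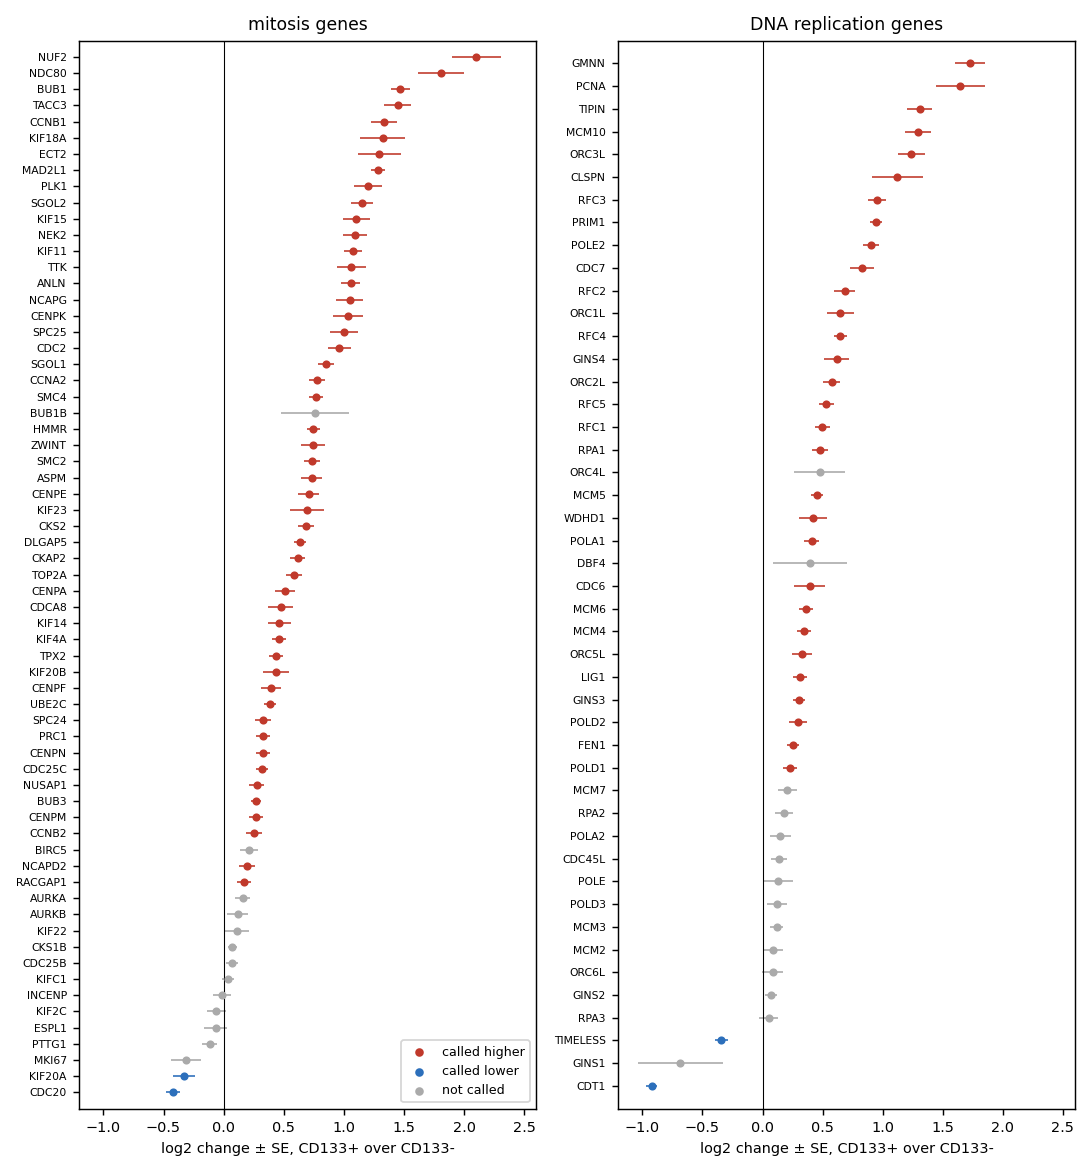
Log2 change of intensity in CD133+ over CD133- KATO-III cells, with its SE, for the 65 mitosis genes (left) and the 46 DNA replication genes (right) described, ordered by size, red where called higher, blue where called lower and grey where not called. The mitosis genes range from -0.42 (CDC20) to 2.10 (NUF2) and the replication genes from -0.92 (CDT1) to 1.73 (GMNN).

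DNA replication genes were higher as well, by less. Of 46 members, 30 were called higher and 2 lower, with a median log2 change of 0.39 and with 6 members at least 2-fold up. PCNA, the sliding clamp of the replication fork, was 2467 and 1856 in CD133+ cells and 785 and 595 in CD133- cells (log2 change 1.65 ± 0.21 SE, adjusted p = 2.65e-04). GMNN encodes geminin, which blocks the licensing of a new round of replication by binding CDT1, and read 1567 and 1905 on the CD133+ arrays and 575 and 472 on the CD133- arrays (log2 change 1.73 ± 0.12 SE, adjusted p = 1.24e-05). CDT1 went the other way, at 1478 and 1419.8 in CD133+ cells and 2694 and 2799 in CD133- cells (log2 change -0.92 ± 0.05 SE, adjusted p = 1.70e-06). Neither gene overlapped between the fractions, and they were the highest and the lowest of the replication list.

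Within this list the parts of the replication machine moved unequally. Some loading and checkpoint genes, MCM10, TIPIN, ORC3L and CLSPN, changed by 1.29, 1.31, 1.24 and 1.12, and the clamp loader subunit RFC3 by 0.95. Loading genes did not rise as a class. CDT1 fell by -0.92, and CDC6 changed by 0.33 to 0.46 in the fits that left out an array. Of the helicase subunits, MCM4, MCM5 and MCM6 were called with 0.34, 0.46 and 0.36, while MCM2, MCM3 and MCM7, at 0.09, 0.12 and 0.21, were not. TIMELESS, which protects the fork, fell (log2 change -0.34 ± 0.06 SE, adjusted p = 0.00129).

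The windows of PCNA (chr20:5126623-5126872, minus strand) and RFC3 (chr13:33817899-33818148, plus strand) show letters typical of E2F sites, with TTTCCCGC on either strand in capitals, here as its reverse GCGGGAAA.
PCNA: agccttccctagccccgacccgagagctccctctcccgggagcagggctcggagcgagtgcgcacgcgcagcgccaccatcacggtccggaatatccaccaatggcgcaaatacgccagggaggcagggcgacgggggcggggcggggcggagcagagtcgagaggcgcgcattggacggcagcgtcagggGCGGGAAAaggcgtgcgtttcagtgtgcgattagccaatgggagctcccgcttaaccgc
RFC3: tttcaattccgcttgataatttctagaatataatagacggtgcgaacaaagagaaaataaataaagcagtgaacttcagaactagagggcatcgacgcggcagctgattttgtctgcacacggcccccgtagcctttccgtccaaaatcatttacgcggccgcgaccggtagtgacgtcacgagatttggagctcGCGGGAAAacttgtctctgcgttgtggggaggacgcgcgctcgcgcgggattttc
TTTCGCGC, TTTGGCGC or TTTCCCGC on either strand stood in 12 of the 40 replication genes with a promoter (30%) against 2.38% of all promoters. The 250 bases before GMNN and MCM10 held none of the 3.

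Supply of deoxynucleotides went with replication, with 8 of 13 genes called higher and none lower at a median of 0.35. TYMS, which makes thymidylate, was 9364 and 9153 in CD133+ cells and 5142 and 5190.1 in CD133- cells (log2 change 0.84 ± 0.04 SE, adjusted p = 1.76e-06), and the nucleotide kinase gene CMPK1 was 1300.3 and 1258 in CD133+ cells and 721 and 632 in CD133- cells (log2 change 0.92 ± 0.13 SE, adjusted p = 4.45e-04). Both genes had no overlap between the fractions.

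Among 29 genes of G1 control, a list that holds both drivers and inhibitors of the cycle, 12 were called lower and 5 higher, with a median of -0.20. The count higher was 2 without the second CD133+ array or the first CD133- array. CDKN1A, which encodes the inhibitor p21, read 145 and 183 on the CD133+ arrays and 1459.8 and 1433 on the CD133- arrays, a fall of 8.89-fold (log2 change -3.15 ± 0.09 SE, adjusted p = 1.56e-07). CDKN2B, the gene of p15, was 134 and 149.6 in CD133+ cells and 455 and 474 in CD133- cells (log2 change -1.71 ± 0.12 SE, adjusted p = 9.98e-06). MXD4 and MXD1, which compete with MYC for its partner MAX, were -2.56 and -1.38. Every CD133+ array was below every CD133- array for these 4 genes.

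The drivers CCND1 and CCNE1 were lower too, at -0.20 and -0.26, with calls that were lost in 4 and 2 of the fits that left out an array (adjusted p = 0.108 to 0.17 and 0.0675 to 0.0833), while other members rose or were not called. MYC itself read 3598 and 3733 on the CD133+ arrays and 3259 and 3393 on the CD133- arrays (log2 change 0.14 ± 0.04 SE, adjusted p = 0.0342), a call that was lost without the second CD133+ array (adjusted p = 0.129) or the first CD133- array (0.154). E2F3 and E2F1, which switch on replication genes, were higher at 0.53 and 0.89, and E2F1 was called in none of the 4 fits that left out an array (adjusted p = 0.0696 to 0.117). RB1, CDK4 and CDK6 were not called, at 0.06, 0.19 and 0.09.

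Products of differentiated gastric and intestinal epithelium were lower in CD133+ KATO-III cells. Of 30 mucins, trefoil factors and related secreted or surface genes, 19 were described, and of these 13 were called lower, 8 by at least 2-fold, and 2 higher, with a median log2 change of -0.78. REG4, a lectin of gut secretory cells, was 112 and 103 in CD133+ cells and 1477 and 1518 in CD133- cells, a fall of 14-fold and the largest of the named genes above the floor on all 4 arrays (log2 change -3.81 ± 0.06 SE, adjusted p = 9.95e-09). MUC5AC, the mucin of the gastric surface, was 219 and 168 in CD133+ cells and 2011 and 2341 in CD133- cells (log2 change -3.50 ± 0.25 SE, adjusted p = 1.16e-05). MUC17, a membrane mucin of the intestine, was 468 and 463 in CD133+ cells and 5126 and 5259 in CD133- cells (log2 change -3.48 ± 0.09 SE, adjusted p = 8.77e-08). The CD133- arrays were the high ones for each of these genes, and no array of one fraction reached into the other.

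SPINK1, a secreted trypsin inhibitor, read 449 and 473 on the CD133+ arrays and 5503 and 5349 on the CD133- arrays (log2 change -3.56 ± 0.06 SE, adjusted p = 9.95e-09). The trefoil factor gene TFF1 read 1966 and 1876 on the CD133+ arrays and 7069 and 6207 on the CD133- arrays (log2 change -1.79 ± 0.06 SE, adjusted p = 3.68e-07). Both were bright in CD133- cells and lower on each CD133+ array. The trefoil factor TFF3 and the mucins MUC1 and MUC13 were called lower with small changes of -0.22, -0.25 and -0.28, and TFF2, MUC2 and AGR2 were not called, at -0.15, -0.11 and -0.00. Lysozyme, encoded by LYZ, was higher (log2 change 0.66 ± 0.05 SE, adjusted p = 1.98e-05), as was SPDEF, a factor of goblet cells (log2 change 0.70 ± 0.18 SE, adjusted p = 0.0132), whose call was lost without the first CD133+ array (0.0851) or the second CD133- array (0.0806). The call of TFF3 was lost without the first CD133- array (0.0561).

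Of 31 intestinal enterocyte markers, 18 were described, with 9 lower and 3 higher, and the median was -0.18. CDH17, the cadherin of intestinal epithelium, read 1182 and 1214 on the CD133+ arrays and 7400.4 and 6082 on the CD133- arrays (log2 change -2.49 ± 0.09 SE, adjusted p = 3.84e-07). GUCY2C, the receptor for guanylin, was under the floor on both CD133+ arrays and at 127 and 120.2 on the CD133- arrays, which is at least 3.78-fold lower. CA2 went up, at 9433 and 9426 in CD133+ cells and 6388 and 5899.9 in CD133- cells (log2 change 0.62 ± 0.13 SE, adjusted p = 0.00401). HNF4A, a factor of this lineage, was dim, at 76.9 and 93.3 in CD133+ cells and 60.8 and 55.3 in CD133- cells, and higher (log2 change 0.55 ± 0.12 SE, adjusted p = 0.00637).

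Of 15 keratins described, 9 were called lower, 6 of them at least 2-fold, and none higher, with a median of -0.70. KRT17 was 431 and 470.4 in CD133+ cells and 3104 and 3119 in CD133- cells (log2 change -2.79 ± 0.05 SE, adjusted p = 9.95e-09) and KRT13 was 657 and 689.6 in CD133+ cells and 3918 and 4099 in CD133- cells (log2 change -2.57 ± 0.06 SE, adjusted p = 8.32e-08). KRT20 and KRT4 were under the floor on the CD133+ arrays and at least 7.29-fold and 5.74-fold lower there. The keratins of simple epithelium, KRT8, KRT18 and KRT19, were not called, at -0.02, -0.01 and 0.09, and KRT8 and KRT19 were among the brightest genes of the arrays, with KRT8 at 13386 and 12895 against 13265 and 13410.0 (CD133+ against CD133-).

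Junction genes were more often lower than higher, 18 against 6 of 35, with a median of -0.30. E-cadherin, encoded by CDH1, was 4129 and 4314 in CD133+ cells and 6574 and 7142 in CD133- cells (log2 change -0.70 ± 0.07 SE, adjusted p = 6.83e-05). Tight junction genes CGN and CLDN15 changed by -1.48 and -1.71, while CLDN2, a channel-forming claudin, rose by 0.93. Of 28 genes of epithelial to mesenchymal transition only 11 were above the floor on 2 arrays, and of these 6 were lower and 2 higher. The list mixes mesenchymal genes with factors that restrain the transition, and OVOL1, OVOL2 and GRHL2 of the latter are among the 6, the calls of OVOL1 and GRHL2 being lost in 2 and 3 of the fits that left out an array (adjusted p = 0.257 to 0.266 and 0.126 to 0.228). VIM, the vimentin gene, was dim at 333 and 333 in CD133+ cells and 268 and 227 in CD133- cells (log2 change 0.43 ± 0.09 SE, adjusted p = 0.00567), and SNAI2, TWIST1, CDH2 and MMP9 lay above the floor on 1 array or none.

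**Figure D3:**
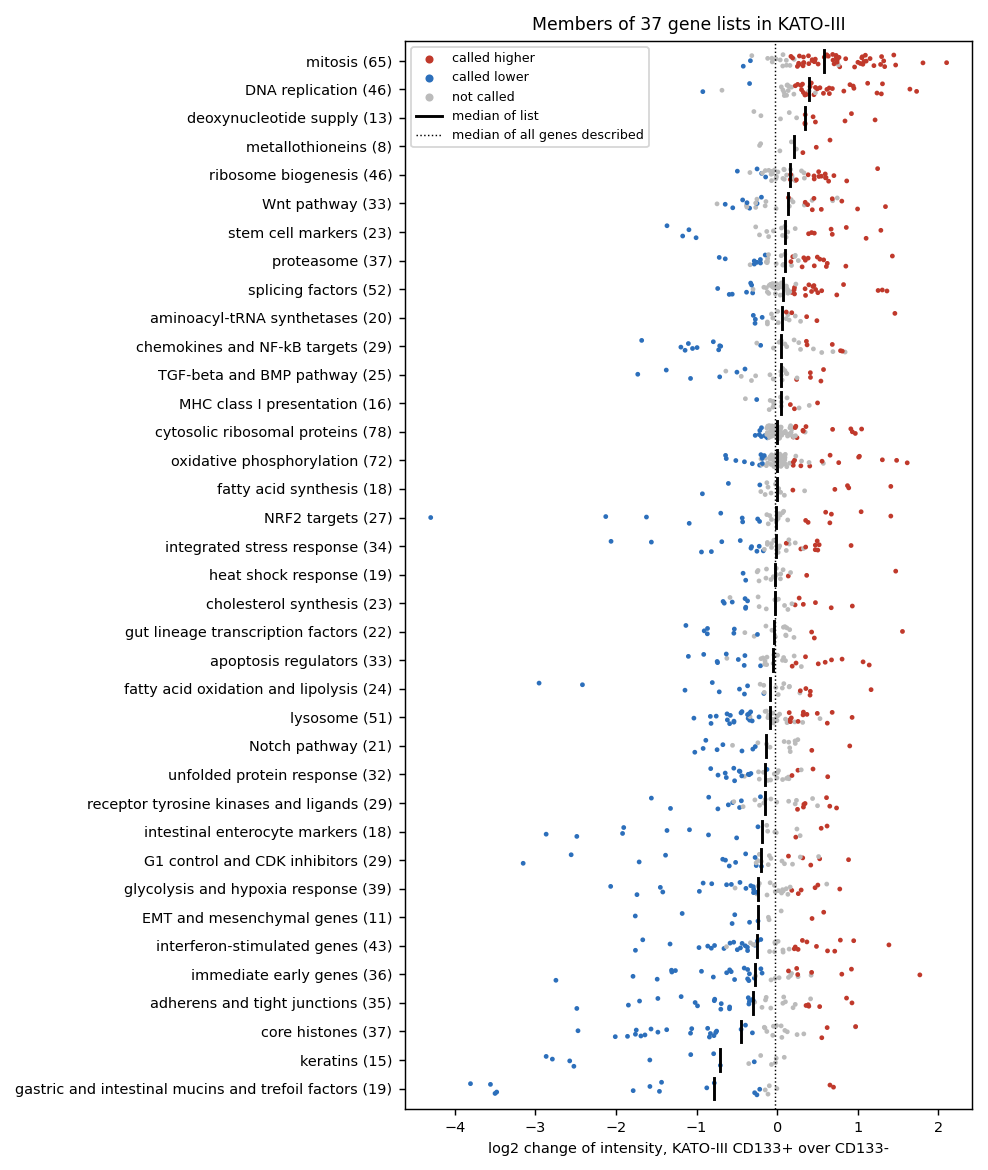
Log2 change in CD133+ over CD133- KATO-III cells of each member described of 37 gene lists (number of members in brackets), ordered by the median (bar), with the median of all 17051 genes described dotted. The lists of mitosis (0.58) and DNA replication (0.39) have the highest medians. Those of mucins and trefoil factors (-0.78), keratins (-0.70) and core histones, which also holds linker histones (-0.45), have the lowest.

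Core and linker histone genes, taken as 1 list, were lower, with 21 of 37 called lower and 3 higher, 12 of the former by at least 2-fold. HIST1H4H was 237 and 248 in CD133+ cells and 1272 and 1417 in CD133- cells (log2 change -2.47 ± 0.13 SE, adjusted p = 2.11e-06) and HIST1H2AC was 401 and 427 in CD133+ cells and 1555 and 1782 in CD133- cells (log2 change -2.01 ± 0.11 SE, adjusted p = 2.37e-06). The fractions did not overlap for either. H2AFX, the histone variant marked at DNA breaks, was higher at 5549.7 and 5470.2 in CD133+ cells and 2888 and 2726 in CD133- cells (log2 change 0.97 ± 0.09 SE, adjusted p = 6.46e-05), H1FX rose by 0.62, and H2AFZ was at 0.05 and not called. The median was -0.45, against -0.34 in SNU-216 and 0.05 in SNU-601. Histone genes are near-identical copies whose probes may share transcripts, and the labelling kit primes from poly(A) tails, which most histone mRNAs of dividing cells lack.

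Immediate early genes, the fast targets of growth factor and stress signals, were lower for 20 and higher for 7 of 36, with a median of -0.28. FOSB was 740.2 and 773 in CD133+ cells and 5028 and 5114 in CD133- cells (log2 change -2.75 ± 0.05 SE, adjusted p = 9.95e-09), JUN was 2883 and 2897 in CD133+ cells and 8306 and 7916 in CD133- cells (log2 change -1.49 ± 0.05 SE, adjusted p = 3.68e-07), and DUSP1, a phosphatase that ends kinase signals, was 1232 and 1339 in CD133+ cells and 4263 and 4616 in CD133- cells (log2 change -1.79 ± 0.08 SE, adjusted p = 1.13e-06). All CD133+ arrays lay below all CD133- arrays for these genes. With the 4 KATO-III arrays fitted alone, 9 members were called lower.

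Some feedback genes of the ERK pathway inside this list were higher and others lower. DUSP6, the phosphatase of ERK, read 3535 and 3343 on the CD133+ arrays and 1034 and 982 on the CD133- arrays (log2 change 1.77 ± 0.08 SE, adjusted p = 1.24e-06), and ETV4 read 892 and 836 on the CD133+ arrays and 470.3 and 442 on the CD133- arrays (log2 change 0.92 ± 0.08 SE, adjusted p = 3.22e-05). SPRY2, a Sprouty inhibitor, changed by 0.80, while SPRED2 was at -0.19 and not called without the second CD133- array (adjusted p = 0.071), and SPRY4 and ETV5 were at -0.34 and -0.20, with calls that were lost in 3 and 2 of the fits that left out an array (adjusted p = 0.0718 to 0.116 and 0.0513 to 0.0746). FGFR2, the receptor gene amplified in this line, was among the brightest transcripts at 14641 and 14601 in CD133+ cells and 11326 and 12012 in CD133- cells (log2 change 0.33 ± 0.08 SE, adjusted p = 0.00863), and its call was lost without the first CD133- array (0.0687). The other receptors split, with MET and FGFR4 higher (0.74 and 0.65) and ERBB3 and ERBB2 lower (-1.32 and -0.74), and of 29 receptor and ligand genes 7 were higher and 9 lower, where the count higher was 4 without the first CD133+ array and 3 without the first CD133- array. MET was not called without the first CD133+ array (0.0527).

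Of 39 hypoxia and glycolysis genes described, 16 were called lower and 6 higher, with a median of -0.24, and the count higher was 3 without the first array of either fraction. Among targets of low oxygen, NDRG1 fell, at 1556 and 1719 in CD133+ cells and 7129 and 6577 in CD133- cells (log2 change -2.07 ± 0.10 SE, adjusted p = 1.41e-06), as did CA9, a carbonic anhydrase of the tumor surface, at 491 and 506 in CD133+ cells and 1391 and 1332 in CD133- cells (log2 change -1.45 ± 0.10 SE, adjusted p = 7.62e-06). SLC2A3, a glucose carrier, and PFKFB4 were lower, with log2 changes of -1.74 and -1.42, while P4HA1 and PDK3 were higher, at 0.50 and 0.47, each without a call in 2 of the fits that left out an array (adjusted p = 0.0528 to 0.0552 and 0.0507 to 0.0564). Of the glycolytic enzymes, GAPDH (0.02), ENO1 (0.07) and LDHA (0.11) were not called, and PKM2 rose, at 5500.0 and 5538 in CD133+ cells and 3279 and 3165 in CD133- cells (log2 change 0.78 ± 0.04 SE, adjusted p = 1.73e-06). VEGFA, another target of low oxygen, was 167 and 176 in CD133+ cells and 478 and 535 in CD133- cells (log2 change -1.56 ± 0.13 SE, adjusted p = 2.46e-05).

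Interferon-stimulated genes did not move as 1 group, with 19 lower and 11 higher of 43 and a median of -0.24. The count higher was 3 without the first array of either fraction, 6 without the second CD133+ array and 4 without the second CD133- array. IFIT2 was 125 and 112 in CD133+ cells and 409 and 391 in CD133- cells (log2 change -1.76 ± 0.11 SE, adjusted p = 5.79e-06) and GBP2 was 448 and 489.9 in CD133+ cells and 1448 and 1528 in CD133- cells (log2 change -1.67 ± 0.07 SE, adjusted p = 9.37e-07). Both lay lower on each CD133+ array. The interferon-stimulated response element stood in the 250 bases of 19 of 33 of these genes (57.6%) against 3.07% of all promoters. In the related lists, 11 of 29 chemokines and NF-kB targets were lower, led by TNFSF10 (-1.68), and 5 higher, among them CXCL5 (0.81) and IL8 (0.79).

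Stress and redox lists were mixed. Of 27 NRF2 targets, 9 were lower and 7 higher at a median of -0.01. AKR1C2, a ketosteroid reductase, had the largest change of all genes described, with 30.4 and 34.2 on the CD133+ arrays and 636 and 681 on the CD133- arrays, at least 19.7-fold (log2 change -4.30 ± 0.12 SE, adjusted p = 8.83e-08). AKR1C3 was 3874 and 4408 in CD133+ cells and 12608 and 12826 in CD133- cells (log2 change -1.62 ± 0.09 SE, adjusted p = 2.46e-06). The glutathione genes GCLC and GSR were higher (0.65 and 0.67), as was NFE2L2, which encodes NRF2 itself (log2 change 1.04 ± 0.07 SE, adjusted p = 7.63e-06). AKR1C genes are near-identical and their probes were not checked for cross-hybridization.

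In the integrated stress response 11 of 34 genes were lower and 9 higher, and of 32 genes of the unfolded protein response 13 were lower and 4 higher. NUPR1 was 308 and 323 in CD133+ cells and 1340.3 and 1293 in CD133- cells (log2 change -2.06 ± 0.24 SE, adjusted p = 1.55e-04), and DDIT3, the CHOP factor, was 1807 and 1625 in CD133+ cells and 3125 and 2913 in CD133- cells (log2 change -0.82 ± 0.08 SE, adjusted p = 8.25e-05). TTGCATCA, the letters of the CEBP-ATF element, stood in 2 of 29 such promoters (6.90%) against 0.820% of all. WFS1 and EDEM1 of the unfolded protein response fell, with log2 changes of -0.82 and -0.73. The median was -0.01 for the integrated stress response and -0.15 for the unfolded protein response, against -0.02 for all genes described. Of the unfolded protein response genes 40.6% were called lower, against 24.4% of all genes described.

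Lists of ribosomes and respiration had medians near that of all genes. Of 78 cytosolic ribosomal protein genes 12 were higher and 8 lower at a median of 0.00, but 20 were higher and 3 lower with the arrays centred on their medians, and the count lower was 5, 4 and 3 without the first CD133+, the first CD133- and the second CD133- array. Of 72 genes of oxidative phosphorylation 13 were higher and 12 lower, also at 0.00, where the count lower was 4 with the KATO-III arrays fitted alone and 7 without the first CD133+ array. Single subunits still moved, as NDUFC1 at 4905 and 4867 in CD133+ cells and 1591 and 1602 in CD133- cells (log2 change 1.61 ± 0.05 SE, adjusted p = 1.75e-07). Nucleolar genes of ribosome biogenesis were higher for 17 and lower for 4 of 46 (2 without the first CD133+ array or either CD133- array), with LYAR at 5695 and 5869 in CD133+ cells and 2484 and 2389.8 in CD133- cells (log2 change 1.25 ± 0.04 SE, adjusted p = 3.68e-07) and NOP58 at 0.86. Splicing factors were higher for 18 and lower for 7 of 52, led by HNRNPF (1.36), and proteasome genes for 14 and 8 of 37, led by PSMD14 (1.43). The proteasome genes lower were 4 with the arrays centred on their medians, 2 without the first CD133+ or the second CD133- array and 5 without the second CD133+ array.

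Stem cell markers did not share a direction. Of 23 described, with PROM1 counted among them, 8 were higher and 4 lower with a median of 0.10. ITGA6, an integrin of basal cells, was 396 and 296 in CD133+ cells and 178 and 110.5 in CD133- cells (log2 change 1.29 ± 0.23 SE, adjusted p = 0.00192), and the chemokine receptor gene CXCR4 was 693 and 717 in CD133+ cells and 390.5 and 387 in CD133- cells (log2 change 0.86 ± 0.11 SE, adjusted p = 2.76e-04). ALDH1A1, an aldehyde dehydrogenase used as such a marker, was lower at 2394 and 2219 in CD133+ cells and 5466 and 4936 in CD133- cells (log2 change -1.17 ± 0.07 SE, adjusted p = 5.79e-06), and ABCG2 and PROM2, the paralog of PROM1, were lower, with log2 changes of -1.09 and -1.01. CD44 and EPCAM were not called, at 0.11 and -0.13. LGR5 was 51.9 and 53.2 in CD133+ cells and 32.7 and 17.5 in CD133- cells, the latter at the floor to the digits given or under it, so its rise of at least 1.61-fold is set by the floor (adjusted p = 8.73e-04). SOX2 was higher (0.46), without a call in any of the 4 fits that left out an array (adjusted p = 0.0516 to 0.112).

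Signalling lists were divided too, with 10 of 33 Wnt genes higher and 7 lower, 2 of 21 Notch genes higher and 8 lower, and 5 of 25 TGF-beta and BMP genes higher and 6 lower. These counts were small and moved with single arrays. The Wnt genes lower were 3 without the second CD133- array and 4 without any other array or with the arrays centred on their medians, the Notch genes higher were 1 without either CD133+ array or the first CD133- array, and the TGF-beta and BMP genes higher were 2 without the first CD133- array and 3 without the second array of either fraction. DKK1, a secreted Wnt antagonist, was 2169 and 2062 in CD133+ cells and 1225 and 1200.3 in CD133- cells (log2 change 0.80 ± 0.05 SE, adjusted p = 4.57e-06). NOTCH1 was 905 and 928 in CD133+ cells and 1821 and 1902 in CD133- cells (log2 change -1.02 ± 0.07 SE, adjusted p = 1.22e-05) and its ligand JAG1 changed by -0.75. BMP2 was 123 and 138 in CD133+ cells and 484 and 384 in CD133- cells (log2 change -1.73 ± 0.20 SE, adjusted p = 1.85e-04), and its target ID1 was lower too (-1.38).

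Of 24 genes of fatty acid oxidation and lipolysis, 9 were lower and 5 higher (3 without the second CD133+ array). MGLL, a lipase, was 71.3 and 76.6 in CD133+ cells and 407 and 383 in CD133- cells (log2 change -2.42 ± 0.10 SE, adjusted p = 9.37e-07), with the CD133+ arrays as the low ones. PECI, an enoyl-CoA isomerase, was higher (log2 change 1.17 ± 0.12 SE, adjusted p = 9.94e-05). Of the lists not described further, fatty acid synthesis had 5 higher and 3 lower of 18, cholesterol synthesis 6 and 7 of 23, heat shock 3 and 2 of 19, metallothioneins 3 and 0 of 8, class I presentation 3 and 1 of 16, gut lineage factors 3 and 7 of 22, apoptosis regulators 9 and 9 of 33, lysosome 12 and 20 of 51, and aminoacyl-tRNA synthetases 5 and 4 of 20. Of these counts, class I genes higher were 1 without the second CD133+ or the first CD133- array, gut lineage factors higher 1 without the first array of either fraction and 5 with centred arrays, lysosome genes higher 7 without the first CD133- array, metallothioneins higher 5 with centred arrays, and synthetases higher 2 without the first CD133+ array and 3 without any other, and lower 2 without the first CD133+ array.

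Single genes outside the lists had the largest rises. RG9MTD1, a part of mitochondrial RNase P, was 269 and 239 in CD133+ cells and 33.8 and 38.1 in CD133- cells (log2 change 2.82 ± 0.21 SE, adjusted p = 1.64e-05). RNASEH2B, a subunit of the enzyme that removes ribonucleotides from DNA, was 574 and 446 in CD133+ cells and 77.0 and 79.2 in CD133- cells (log2 change 2.70 ± 0.26 SE, adjusted p = 5.60e-05). PTMA, prothymosin alpha of dividing cells, was 1542 and 1796 in CD133+ cells and 326 and 298 in CD133- cells (log2 change 2.42 ± 0.13 SE, adjusted p = 2.27e-06). Both CD133+ arrays were the high ones for each of these genes, and RG9MTD1 lay just above the floor in CD133- cells.

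Other rises included SAP30 of a histone deacetylase complex, at 1189 and 1092 in CD133+ cells and 279 and 237 in CD133- cells (log2 change 2.15 ± 0.20 SE, adjusted p = 5.62e-05), and the dynein light chain gene DYNLT3, at 4224 and 3996 in CD133+ cells and 1076 and 974 in CD133- cells (log2 change 2.00 ± 0.10 SE, adjusted p = 1.76e-06). The neurexin family gene CNTNAP2 was 582 and 664 in CD133+ cells and 118 and 126 in CD133- cells (log2 change 2.35 ± 0.12 SE, adjusted p = 1.76e-06). AVEN, an inhibitor of apoptosis, was 1075 and 1034 in CD133+ cells and 228 and 288 in CD133- cells (log2 change 2.04 ± 0.30 SE, adjusted p = 7.38e-04). Their lack of overlap between the fractions was likewise set by the choice of genes. SNX10, LRRC16A, FAM72D, IFP38 and METTL6 complete the 12 largest rises, with log2 changes between 2.00 and 2.36, and 8 rows without a gene name of their own were passed over. Of 538 genes above the floor on the CD133+ arrays alone, 294 were called, against 46.4% of all genes described called in either direction. Their direction was set by this choice, so the count is not a result about them. Those with a gene name of their own were led by TUBD1, a delta-tubulin, at 177 and 161 (at least 5.17-fold). The chemokine CXCL13, at 141 and 112 (at least 3.84-fold), was among them.

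Among the 12 largest falls were further products of gut epithelium. PDZD3, a scaffold of the intestinal brush border, was 54.4 and 49.1 in CD133+ cells and 665 and 672 in CD133- cells (log2 change -3.69 ± 0.13 SE, adjusted p = 3.70e-07). TM4SF4, a membrane protein of the gut, was 447 and 479 in CD133+ cells and 4861 and 4984 in CD133- cells (log2 change -3.41 ± 0.08 SE, adjusted p = 6.03e-08). ABP1, the diamine oxidase of the gut, was 57.7 and 60.8 in CD133+ cells and 628 and 631 in CD133- cells and DEFB1, an epithelial defensin, 107 and 118 in CD133+ cells and 1198 and 1176 in CD133- cells, with log2 changes of -3.41 and -3.40. PRSS1, a trypsinogen, was 83.7 and 69.3 in CD133+ cells and 644 and 667 in CD133- cells (log2 change -3.11 ± 0.12 SE, adjusted p = 5.42e-07). The falls of these 5 genes ranged from 8.6-fold for PRSS1 to 12.9-fold for PDZD3. The 12 largest falls were taken from genes without overlap between the fractions, so the lack of overlap was set by this choice.

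The largest falls also included other kinds of genes. PIK3IP1, an inhibitor of PI3-kinase, was 109 and 89.0 in CD133+ cells and 791 and 937 in CD133- cells (log2 change -3.12 ± 0.16 SE, adjusted p = 2.00e-06). LUM, the proteoglycan lumican and 1 of the 12 fibroblast markers, was 64.4 and 91.6 in CD133+ cells and 743 and 783 in CD133- cells (log2 change -3.31 ± 0.16 SE, adjusted p = 1.73e-06), while COL1A1 was above the floor on the CD133+ arrays alone. CD68 and CD14 of the blood list changed by -1.36 and -0.53. Of 764 genes above the floor on the CD133- arrays alone, 303 were called, against 46.4% of all genes described called in either direction. Their direction too was set by the choice, so the count is not a result about them. Those with a gene name of their own were led by VNN1, a pantetheinase, at 375 and 419.8 (at least 12.1-fold). FMO5 (at least 8.66-fold) and DHRS9, a retinol dehydrogenase (at least 7.82-fold), came next.

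**Figure D4:**
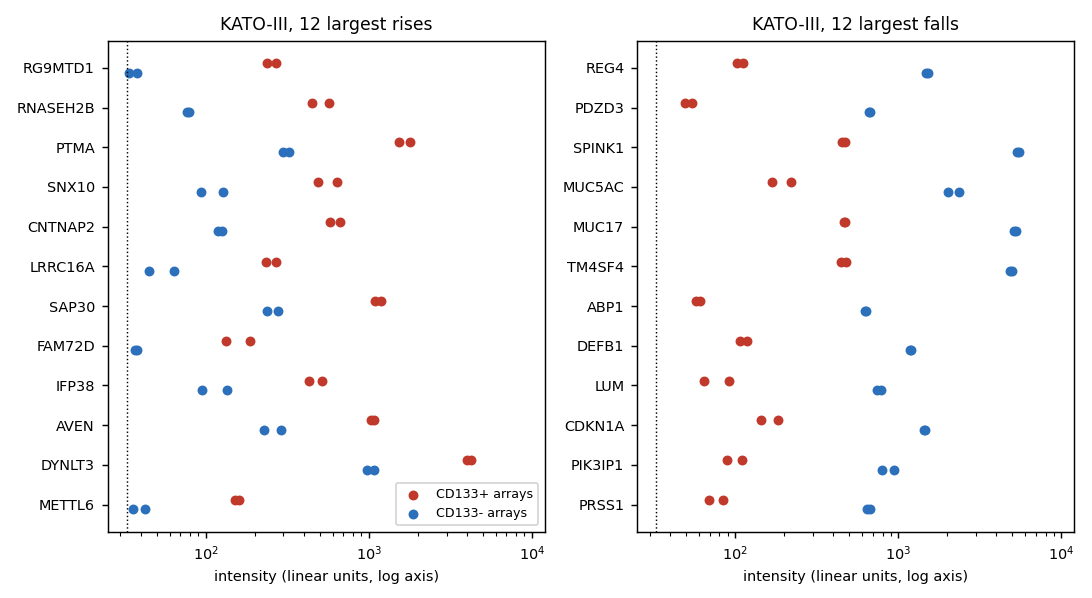
Intensity of the 12 genes with the largest rises (left) and falls (right) called in KATO-III, on each CD133+ (red) and CD133- (blue) array, on a log axis with the floor of 32.7 dotted. The arrays of each fraction lie close together. Only genes without overlap between the fractions were eligible, so the gap for all 24 genes was set by this choice.

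The fractions of KATO-III were set beside those of SNU-216 and SNU-601 to find where the line differs. The KATO-III change differed from the mean change of these lines for 6533 of 20147 genes (32.4%), and for 6281 of the genes described (36.8%). Among genes above the floor on all 12 arrays, the changes lying farthest below those of the other lines were of KRT13 and KRT17. KRT13 changed by -2.57 in KATO-III and by 4.05 in SNU-216 and -0.12 in SNU-601 (-4.54 ± 0.08 SE, adjusted p = 1.62e-08). KRT17 changed by -2.79 in KATO-III and by 1.71 in SNU-216 and 0.40 in SNU-601 (-3.84 ± 0.06 SE, adjusted p = 8.38e-09). For both keratins the change in SNU-216 had the opposite sign.

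CDKN1A differed in the same way, with 0.51 in SNU-216 and 0.21 in SNU-601 (-3.51 ± 0.11 SE, adjusted p = 7.00e-07). PIK3IP1, FOSB and MXD4 followed, with differences of -3.34, -2.72 and -2.61. In the other lines FOSB changed by -0.29 in SNU-216 and 0.25 in SNU-601, and MXD4 by -0.17 in SNU-216 and 0.28 in SNU-601.

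On the other side were LRRC16A (2.30 ± 0.34 SE, adjusted p = 0.001), AVEN (2.06 ± 0.37 SE, adjusted p = 0.00293) and IFP38 (2.05 ± 0.23 SE, adjusted p = 2.16e-04). SAP30, CCDC58 and IER3IP1 had differences of 1.96, 1.88 and 1.87. In KATO-III these 6 genes changed by 1.88 to 2.23. CDH1 changed by 0.30 in SNU-216 and -0.25 in SNU-601, and its difference was -0.72 ± 0.08 SE, adjusted p = 2.85e-04. FGFR2 was at the floor in the other lines, so its difference is its own KATO-III change. REG4 and SPINK1 were at the floor in SNU-216, where no change can be read, and changed by -0.45 and 0.04 in SNU-601. MUC5AC changed by -0.25 in SNU-216 and -2.08 in SNU-601, with a difference of -2.33 ± 0.30 SE, adjusted p = 5.12e-04. Other gut products that fell in KATO-III were divided in SNU-601. MUC17 and TM4SF4 changed there by -2.05 and -1.96, and PDZD3, ABP1, DEFB1 and PRSS1 by -0.22, 0.10, -0.31 and -0.91.

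**Figure D5:**
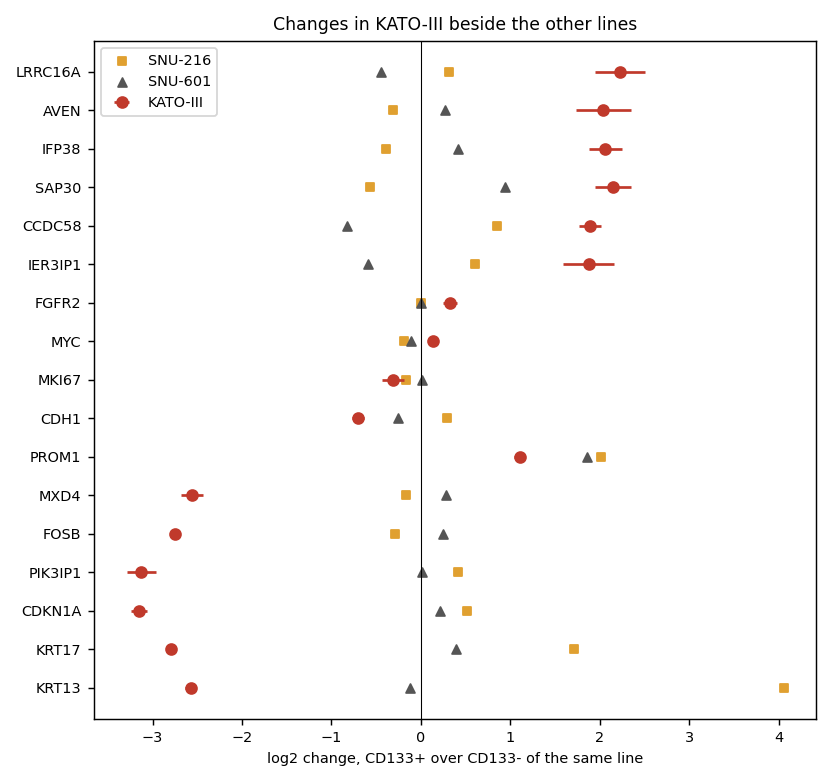
Log2 change of CD133+ over CD133- cells in KATO-III (circles, with SE), SNU-216 (squares) and SNU-601 (triangles) for PROM1, the 6 genes each way with the largest differences between KATO-III and the mean of the other lines among genes above the floor on all 12 arrays, and CDH1, FGFR2, MYC and MKI67. KRT13 shows the widest spread, from -2.57 in KATO-III to 4.05 in SNU-216.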

How the data were processed

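Total RNA of sorted CD133+ and CD133- cells of 3 gastric cancer lines was hybridized to 12 Illumina HT-12 v3 BeadChips, 2 for each of 6 populations, grouped by the labels. The authors deposited linear, quantile-normalized intensity values read out with BeadStudio, with 34688 rows named by gene symbol, of which 93 are empty. A background had been subtracted, since 32.1% of values are at or below 0. How it was estimated and how probes of a gene were combined are not given in the sources used here. The design text names SNU201 where the labels have SNU-216.

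The tests had been planned for log2 values. The values are linear, so intensities under 32.7 were set to this floor and log2 was taken, which shrinks changes of dim genes. A gene under the floor on both arrays of a fraction has only a bound there, and its fold is given as "at least". It equals the 1st percentile over the 12 arrays without its minus sign. Genes exceeding it on 2 or more arrays, 20147 in number, were fitted in limma 3.58.1 (R 4.3.3) with a mean for each population, a mean-variance trend and 6 residual degrees of freedom, and p-values were adjusted over all of them. The number of arrays limits the precision. On simulated data of 20147 genes with 200 changed in KATO-III, 68.5% of changes of 1 on the log2 scale were recovered with 6 false calls, and 29.5% of changes of 0.5 with 8. In the data 39.3% of the genes fitted were called, a far larger share than was changed in the simulation. The adjusted p depends on this share, so these rates do not carry over to the real comparison.

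Named genes were PROM1, the 12 largest rises and falls called, without overlap and above the floor on all 4 arrays, the 5 largest each way at the floor in 1 fraction, up to 4 called members of each list in its main direction and 2 in the other, the 6 largest differences each way from the other lines among genes above the floor on all 12 arrays, and FGFR2, CDH1, MKI67, MYC and CDKN1A. Further members of a list are named as examples after their values were seen. The members and the 38 lists were chosen with earlier results of these data known. A list and some named genes are not reported here. Promoters and current symbols are from RefSeq (GRCh38.p14). Other floors, an offset, other scalings and filters, no trend, the KATO-III arrays alone, a replicate block, leaving out each array and the signal-to-noise ratio of the methods were tried.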

Additional observations from a re-analysis of the deposited data

Results flagged for a closer look

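The change between the fractions was compared between KATO-III and the mean of SNU-216 and SNU-601 by the interaction contrast in limma. Of the genes for which the report gives or plots this difference, 17 passed at an adjusted p under 0.05. LRRC16A, AVEN, IFP38, SAP30, CCDC58 and IER3IP1, and KRT13, KRT17, CDKN1A, PIK3IP1, FOSB and MXD4, were chosen for the size of this difference. Their passing was largely set by that choice, so the count of 17 is not a result. Of all genes described, 36.8% passed. On the log2 scale, KATO-III lay above the other lines for LRRC16A (2.30), AVEN (2.06), IFP38 (2.05), SAP30 (1.96), CCDC58 (1.88), IER3IP1 (1.87), FGFR2 (0.33) and MYC (0.29). It lay below them for KRT13 (-4.54), KRT17 (-3.84), CDKN1A (-3.51), PIK3IP1 (-3.34), FOSB (-2.72), MXD4 (-2.61), MUC5AC (-2.33), PROM1 (-0.83) and CDH1 (-0.72). PROM1 rose in all 3 lines, and FGFR2 is at the floor in the other 2. KRT13 and KRT17, for which SNU-216 moved the opposite way, are the widest of these differences. No group holds the 4 arrays that a search for a single outlying array needs.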

How the results depend on the processing

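All calls rest on 2 arrays per fraction, whose sorts may be shared, on a floor chosen after the values were seen, and on 1 value per gene symbol, which hides probes that disagree. In the fit of the 4 KATO-III arrays alone, which has fewer residual degrees of freedom, 2401 genes were higher against 3761. At least 2-fold higher were 1051 genes with a floor of 16, 403 with a floor of 100 and 231 with an offset of 100 and no floor, against 667, and at least 2-fold lower were 1440, 502 and 339, against 838. The floor and the offset set the size of the change of dim genes directly. Leaving out each array in turn gave 2943 to 3184 genes higher, 3216 to 3454 lower, 643 to 696 and 801 to 859 at least 2-fold, and 5333 to 5688 that differed from the other lines. The signal-to-noise ratio of the methods, within KATO-III and with no test, passed 1 for 5406 genes and -1 for 5883.

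Array numbers did not pair the fractions (correlation of same-numbered deviations 0.03 in KATO-III, 0.01 in SNU-216 and -0.01 in SNU-601). With the replicate block, 3431 genes were higher and 3829 lower, 648 and 823 by at least 2-fold, and 5783 differed from the other lines. PROM1 had a log2 change of 1.10 in that fit and was called in every alternative. Of 7917 genes called, between 4824 (the 4 arrays alone) and 7642 (quantile-normalized again) were called in the same direction under an alternative, and none in the opposite one. Of 243 named genes in 14 alternatives, 3363 values in all, 196 lost their call, 3 gained one and none changed sign. Without an array, 33 named genes lost their call at least once. Of 1064 list counts, 112 moved by over 1.5 times, among them 11 interferon-stimulated genes higher, which were 3 without the first CD133+ array, 20 immediate early genes lower, which were 9 with the 4 arrays alone, and 5 genes of G1 control higher, which were 2 without the second CD133+ array.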

Other observations

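Of the 13909 genes above the floor on all 4 KATO-III arrays, 10703 matched a current RefSeq symbol, and their median log2 change differed by chromosome. It was highest on chromosome 4 (0.26 over 359 genes, with 0.12 in SNU-216 and 0.03 in SNU-601) and chromosome 13 (0.16 over 186 genes, with -0.02 in SNU-216), and lowest on chromosome 20 (-0.18 over 307 genes, with 0.00 in SNU-216 and -0.04 in SNU-601) and chromosome 22 (-0.14 over 278 genes). RNASEH2B and SAP30, among the largest rises, lie on chromosomes 13 and 4. They are examples picked for these chromosomes, and where the other largest rises lie was not counted. The cause was not tested, and these are values over genes, which are not independent.

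The median change of the mitosis genes lay above that of all genes in each group by GC content of the promoter. Whether GC content has a part in the change was not tested, and the upper groups hold few mitosis genes. In 4 groups of genes of near equal size by the GC share of the RefSeq promoter, from 27.7% to 58.7% in the lowest and from 72.0% to 94.0% in the highest, the median change of all genes was -0.00, 0.03, 0.00 and -0.05, while that of the mitosis genes was 0.61 (18 genes), 0.71 (25), 0.39 (8) and 0.69 (4).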
